A study of Mus musculus with 4 samples.

Results

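Deep intragenic peaks are streptavidin ChIP peaks whose midpoint lay inside a protein-coding gene and more than 10 kb from both boundaries of every annotated gene of any biotype, on the autosomes and the X chromosome. Of the 9444 peaks in the deposited lists, 2034 met this rule, 875 of 4246 in the NKT list and 1159 of 5198 in the PLZF-transgenic list. A further 7 peaks of each list lay off these chromosomes and were left out. The rule used position alone, so the peak scores, the widths and the overlap between the lists were free to vary.

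The study mapped PLZF in mouse thymocytes on a C57BL/6 background, by pulling down PLZF with the DNA it held on streptavidin beads. The NKT library came from animals with 3 transgenes, for PLZF, for BirA (the bacterial biotin ligase) and for Valpha14 (the receptor alpha chain that invariant natural killer T cells share). The PLZF-transgenic library, labelled Tg thy, came from animals with the PLZF and BirA transgenes and without Valpha14. Both libraries were labelled thymocytes. The labels do not say how many NKT cells the NKT library held, whether cells were sorted, how many animals were used or which promoters drive the transgenes, and peak lists hold no expression against which to check the cell type. Each group had 1 library, so no difference below has a replicate check, no test between the groups was possible, and all intervals cover counting error only. Both groups carry the PLZF and BirA transgenes, and no pull-down without PLZF was among the samples, so the part of the peaks that streptavidin gives by itself was not measured. Sequencing depth is unknown.

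PLZF, encoded by Zbtb16, is a BTB zinc finger transcription factor that directs the innate-like program of natural killer T cells and recruits co-repressors through its BTB domain. The inside of a long gene is mostly intron, and introns of lymphocyte genes are known to hold enhancers and alternative promoters. Very long genes are often genes of neurons or muscle that thymocytes do not need.

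The sequences shown first are internal promoters, because these were the only places inside the genes where the reference gave both a start site and its bases. A promoter window runs from 250 bases before to 50 bases after a RefSeq start site (300 bases). Of the windows of protein-coding genes, 1145 in 861 genes had a start site in deep intragenic sequence. NKT deep peaks touched such a window in 9 of 875 cases, 1.03% (exact 95% interval 0.471 to 1.94%), and PLZF-transgenic deep peaks in 25 of 1159, 2.16% (1.40 to 3.17%). Peaks of the same widths spread evenly over all deep sequence would touch one in 0.104% and 0.130% of cases. Most deep peaks therefore lay away from any start site in the table, which holds no entry for some genes. Within 5 kb of an internal window were 5.71% of NKT and 6.64% of PLZF-transgenic deep peaks.

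In 7 genes, peaks of both lists lay on the same internal promoter. Their sequences are from RefSeq (build GRCm38.p6, the assembly that mm10 names), on the strand of the gene and 5′ to 3′. Capitals mark the ETS core GGAAG and the RUNX core TGTGGT, read on both strands.
Arpp21, chr9:112217212-112217511, minus strand: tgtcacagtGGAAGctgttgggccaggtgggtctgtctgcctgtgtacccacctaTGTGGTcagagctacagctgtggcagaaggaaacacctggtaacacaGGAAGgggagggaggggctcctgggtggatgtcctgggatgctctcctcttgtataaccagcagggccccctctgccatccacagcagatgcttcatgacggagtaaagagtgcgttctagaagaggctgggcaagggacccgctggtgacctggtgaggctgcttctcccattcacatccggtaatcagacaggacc
Il16, chr7:83655446-83655745, minus strand: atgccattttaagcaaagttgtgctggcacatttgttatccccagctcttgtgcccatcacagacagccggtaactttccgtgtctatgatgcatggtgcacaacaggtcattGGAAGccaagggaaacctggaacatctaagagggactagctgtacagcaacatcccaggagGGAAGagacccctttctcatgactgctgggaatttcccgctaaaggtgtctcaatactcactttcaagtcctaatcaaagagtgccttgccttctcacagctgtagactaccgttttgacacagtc
Rassf5, chr1:131200136-131200435, minus strand: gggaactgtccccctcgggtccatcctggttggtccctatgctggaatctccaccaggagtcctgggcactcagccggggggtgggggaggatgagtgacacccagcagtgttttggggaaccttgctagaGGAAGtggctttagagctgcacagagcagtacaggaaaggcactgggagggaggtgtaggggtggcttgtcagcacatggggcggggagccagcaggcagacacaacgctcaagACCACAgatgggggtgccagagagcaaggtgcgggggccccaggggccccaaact
Fyb, chr15:6579597-6579896, plus strand: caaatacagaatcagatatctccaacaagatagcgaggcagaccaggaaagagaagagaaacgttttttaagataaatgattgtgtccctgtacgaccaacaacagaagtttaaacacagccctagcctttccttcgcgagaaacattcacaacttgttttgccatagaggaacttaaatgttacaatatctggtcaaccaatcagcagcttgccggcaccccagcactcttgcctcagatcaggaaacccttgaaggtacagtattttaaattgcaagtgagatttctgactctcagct
Dock10, chr1:80665303-80665602, minus strand: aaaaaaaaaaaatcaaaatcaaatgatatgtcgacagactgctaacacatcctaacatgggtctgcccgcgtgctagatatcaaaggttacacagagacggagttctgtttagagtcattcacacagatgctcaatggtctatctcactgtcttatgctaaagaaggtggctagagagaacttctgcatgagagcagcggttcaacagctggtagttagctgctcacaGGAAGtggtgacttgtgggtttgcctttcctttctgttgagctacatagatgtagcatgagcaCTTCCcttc
Jmjd1c, chr10:67185500-67185799, plus strand: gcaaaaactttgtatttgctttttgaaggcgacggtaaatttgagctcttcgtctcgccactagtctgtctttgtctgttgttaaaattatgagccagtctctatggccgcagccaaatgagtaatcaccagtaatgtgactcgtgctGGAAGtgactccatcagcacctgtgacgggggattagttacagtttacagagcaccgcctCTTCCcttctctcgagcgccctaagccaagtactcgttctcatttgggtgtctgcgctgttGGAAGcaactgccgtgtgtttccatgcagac
Psd4, chr2:24386366-24386665, plus strand: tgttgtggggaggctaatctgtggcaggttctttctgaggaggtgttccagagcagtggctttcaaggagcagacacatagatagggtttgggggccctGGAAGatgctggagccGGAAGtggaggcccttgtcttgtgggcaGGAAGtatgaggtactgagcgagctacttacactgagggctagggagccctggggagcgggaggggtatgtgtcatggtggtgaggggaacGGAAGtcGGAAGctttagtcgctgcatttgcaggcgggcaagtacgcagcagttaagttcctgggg

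Several of these genes have known roles in lymphocytes. Arpp21, which encodes cAMP-regulated phosphoproteins of thymocytes and brain, had the highest NKT score of the group, 269, and 336 in the PLZF-transgenic list. Its internal window lay 19 kb from the 5′ boundary of a gene of 171 kb, and peaks of both lists covered all 300 bases of the window. Il16, which encodes the precursor of the cytokine IL-16, had an NKT score of 114 and a PLZF-transgenic score of 528, the highest PLZF-transgenic score on any internal promoter. The Il16 start lay 90.5 kb into a gene of 103 kb.

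Rassf5, whose products include the integrin regulator RAPL of lymphocytes, had scores of 165 in the NKT list and 234 in the PLZF-transgenic list, 45.0 kb into the gene. Fyb, which encodes the adaptor ADAP of T cell receptor signalling, had 120 and 149, the NKT value first, at 57.1 kb. Dock10, an activator of small GTPases, had 114 in the NKT list and 316 in the PLZF-transgenic list, at 93.4 kb. The histone demethylase family gene Jmjd1c had 114 and 117, and the ARF exchange factor gene Psd4 had 92.7 and 50.8, again with NKT first. Psd4 was the only 1 of the 7 with the higher number in the NKT list, but scores of different lists do not share a scale.

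The other internal promoters were under a peak of 1 list. In the NKT list these were Cntrl (91.0), which encodes centriolin, and Sp110 (68.3). In the PLZF-transgenic list there were 18 more genes, among them Ablim1 (287), which encodes an actin-binding LIM protein, Tmpo (210), which encodes the nuclear lamina protein thymopoietin, Gm826 (202), Stambpl1 (145), Slc7a11 (135), a cystine transporter gene, and Apbb1ip (132), which encodes the RAP1 effector RIAM. The ETS core was found in 10 of 11 windows under an NKT deep peak (90.9%) and in 25 of 26 under a PLZF-transgenic deep peak (96.2%). It was found in 69.6% of all 1145 internal windows and in 71.4% of all 32851 windows in the table. The RUNX core was found in 5 of 11 and 6 of 26 windows, against 18.5% of internal and 16.8% of all windows. The Fyb window held neither core. Of the 2 other letter patterns counted, the E-box CANNTG (N for any base) was in 11 of 11 and 22 of 26 windows. It was in 76.2% of internal and 72.3% of all windows. TATAAA was in 0 of 11 and 2 of 26 windows, against 13.4% and 13.6%. With so few windows, no interval was computed for any pattern. The 2 Arpp21 windows and the 2 Cntrl windows each overlap and share bases, and the letters alone show no binding.

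Deep intragenic sequence held fewer peaks than sequence near gene boundaries and more than sequence between genes. It made up 631 Mb, 24.2% of the span between the first and the last gene of each chromosome. It held 20.6% of nuclear NKT peaks (exact 95% interval 19.4 to 21.9%) and 22.3% of PLZF-transgenic peaks (21.2 to 23.5%). The density of deep peaks was 1.39 per Mb in the NKT list (Poisson 95% interval 1.30 to 1.48) and 1.84 per Mb in the PLZF-transgenic list (1.73 to 1.94). Within 10 kb of a gene boundary it was 2.86 and 3.48 per Mb, NKT first. Between genes and more than 10 kb from any of them it was 0.552 (0.505 to 0.601) in the NKT list and 0.612 (0.563 to 0.664) in the PLZF-transgenic list. Sequence inside noncoding genes alone, 74.2 Mb, held 1.06 and 1.23 peaks per Mb. The span includes assembly gaps, which were not known.

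**Figure D1:**
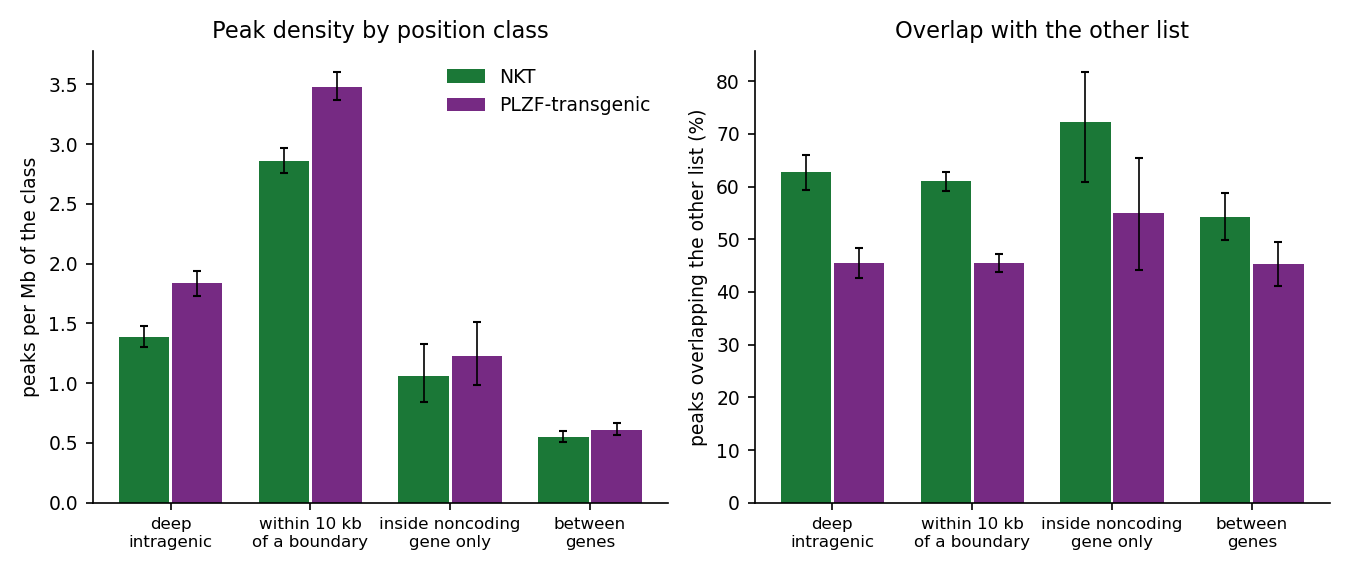
Left, peaks per Mb of each position class in the NKT list (green) and the PLZF-transgenic list (purple), with Poisson 95% intervals. Right, percent of peaks in each class that share 1 bp or more with the other list, with exact 95% intervals. Deep intragenic density, 1.39 and 1.84 per Mb, lies between the density near boundaries and that between genes in each list.

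Deep peaks were found again in the other list about as often as peaks elsewhere. Of NKT deep peaks, 549 of 875 overlapped a PLZF-transgenic peak, 62.7% (59.4 to 66.0%), against 60.2% (58.5 to 61.9%) of the other nuclear peaks and 60.7% of all of them. Of PLZF-transgenic deep peaks, 527 of 1159 overlapped an NKT peak, 45.5% (42.6 to 48.4%), against 45.7% (44.2 to 47.3%) of the others and 45.7% of all. Between genes the NKT share was 54.3% (49.9 to 58.7%), and that interval did not reach the deep intragenic one. The median NKT score between genes, 68.7, was also lower than the 77.8 of deep peaks. In the PLZF-transgenic list the share between genes, 45.3% (41.2 to 49.5%), was close to that of deep peaks. Where an NKT deep peak overlapped a PLZF-transgenic peak, the midpoints lay a median of 57.0 bp apart. In 497 of these 549 pairs the peak of the PLZF-transgenic list was wider. Over both lists there were 1483 separate deep sites.

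Sharing followed the score inside genes as elsewhere. At NKT scores of 126 and above, the upper quartile of the list, 97.4% of deep peaks (94.4 to 99.0%) and 94.6% of other peaks (92.8 to 96.0%) were shared. At NKT scores up to 56.3, the lower quartile, 23.4% of deep peaks (17.7 to 29.9%) and 33.1% of other peaks (29.9 to 36.3%) were, and these intervals meet at their ends. Between 56.3 and 73.8 the order was the other way, with 47.2% of deep and 41.8% of other peaks. PLZF-transgenic deep peaks of score 202 and above were shared in 84.1% of cases and other peaks in 85.2%, and those of score up to 70.3 in 13.6% and 16.4%.

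Over all peaks, deep peaks had slightly higher median scores and widths than the rest of each list, but the score differences and the PLZF-transgenic width difference turned round under filters on the score. The median score was 77.8 for NKT deep peaks (quartiles 56.8 to 130) and 73.0 for the other NKT peaks (56.2 to 124). In the PLZF-transgenic list it was 124 for deep peaks (75.3 to 217) and 107 for the others (69.5 to 197). Median widths were 239 bp for deep and 219 bp for other NKT peaks, and 404 bp for deep and 382 bp for other PLZF-transgenic peaks. The quartiles overlap almost fully. The score difference turned round in both lists among the 1000 peaks with the highest scores of each list, to -6.12 in the NKT list and -5.85 in the PLZF-transgenic list. The PLZF-transgenic width difference turned round to -12.5 bp in the top 50% by score.

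The deep peaks of highest score were common to both lists and lay in genes of varied function. Xrcc6, which encodes the DNA repair protein Ku70, held the highest NKT score at chr15:82027549-82028538 (1793), where the PLZF-transgenic score was 2785. The midpoint lay 40.2 kb from the 5′ boundary of a gene of 52.3 kb and 11.8 kb from the nearest boundary. Metap1d, which encodes a mitochondrial methionine aminopeptidase, had an NKT score of 1679 at chr2:71485811-71486945 and a PLZF-transgenic score of 3100, 33.1 kb into a gene of 71.9 kb.

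Next in the NKT list was Gse1, with a score of 1043 at chr8:120285022-120285926 and 888 in the PLZF-transgenic list, 57.0 kb into a gene of 353 kb. Cuedc1 had 923 in the NKT list and 1280 in the PLZF-transgenic list, 46.3 kb into a gene of 95.0 kb. Zfp607b, a zinc finger gene, had 873 and 506, NKT first. Xrra1 had 855 in the NKT list and 1630 in the PLZF-transgenic list at a place that also lies in the noncoding gene Gm38405.

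Pde4d, which encodes a phosphodiesterase that degrades cAMP, had 811 and 841, NKT first, 1169 kb into a gene of 1302 kb. Scml4, a gene of the Polycomb group family, had 760 in the NKT list and 1468 in the PLZF-transgenic list. The highest PLZF-transgenic scores further included Vps45 (1028, and 674 in the NKT list), Ldlrad4 (996, and 659 in the NKT list), an inhibitor of TGF-beta signalling, and the arrestin gene Sag (937, and 473 in the NKT list).

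The highest scores among unshared deep peaks ranked lower, at the 78.7th to 83.7th percentile of scores in the NKT list and the 89.6th to 92.6th in the PLZF-transgenic list. PLZF-transgenic ones lay in Fggy (407), Ldlrad3 (389), Il16 (374), Hivep2 (361), which encodes a zinc finger factor, and Reep1 (344). In the NKT list, 3 of the 5 lay in Sfi1 (163, 151 and 145), and the others in Tbc1d16 (141) and Tmem267 (138). The Sfi1 peaks were 4015, 2011 and 4146 bp wide, and the gene was presumed repeat-rich. Peaks just inside the 10 kb limit lay 10030 bp (Ahnak, score 61.3), 10059 bp (Pld3, 90.8) and 10079 bp (Ets1, 250) from a boundary in the NKT list, and 10009 bp (Lrmp, 148), 10021 bp (Syt13, 254) and 10036 bp (Msra, 147) in the PLZF-transgenic list. Just outside it lay peaks at 9998 bp (Stk3, 209), 9995 bp (Map4k5, 165) and 9965 bp (Tmem242, 94.9) in the NKT list, and at 9995 bp (Capg, 107), 9988 bp (Sbk1, 90.9) and 9978 bp (Stk3, 167) in the PLZF-transgenic list.

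Longer genes held a deep peak more often, up to a point. Of 21631 protein-coding genes, 9272 had any sequence more than 10 kb from all boundaries, with a median length of 53.4 kb. At least 1 deep peak lay in 619 of these in the NKT list (6.68%) and in 732 in the PLZF-transgenic list (7.89%). Both lists held 454 of them, 73.3% of the NKT and 62.0% of the PLZF-transgenic genes, and 411 of the 454 had a shared peak. Genes with a deep peak had a median length of 116 kb in the NKT list and 108 kb in the PLZF-transgenic list, and genes with none in either had 49.8 kb. Peak number and gene length correlated weakly across the 9272 genes, with a Spearman coefficient of 0.21 in the NKT list and 0.22 in the PLZF-transgenic list, and the genes of a list share 1 library.

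By length class, the share of genes with a deep peak was 2.05% in the NKT list and 2.65% in the PLZF-transgenic list for genes of 20 to 50 kb (4347 genes). It was 7.20% and 9.12% for 50 to 100 kb (2501 genes), 12.4% and 14.8% for 100 to 200 kb (1434 genes), and 18.7% and 20.2% for 200 to 400 kb (638 genes), NKT first each time. For the 352 genes over 400 kb it was 15.1% in the NKT list (11.5 to 19.2%) and 13.6% in the PLZF-transgenic list (10.2 to 17.7%). No deep peak of either list lay in 283 of these 352 longest genes.

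Per Mb of deep sequence, long genes held fewer peaks, not more. The NKT density was 2.22 per Mb in genes of 20 to 50 kb (1.81 to 2.69) and 2.45 in genes of 50 to 100 kb (2.16 to 2.78). It was 1.94 in genes of 100 to 200 kb, 1.37 in genes of 200 to 400 kb and 0.365 in genes over 400 kb (0.288 to 0.455). In the PLZF-transgenic list the same classes gave 2.95, 3.22, 2.68, 1.85 and 0.412 per Mb (0.330 to 0.507 for the last). With sequence and peaks counted once for each gene that holds them, genes over 400 kb held 33.6% of deep sequence. They held 8.82% of NKT and 7.50% of PLZF-transgenic deep peaks by the same count. Their density, at 0.365 and 0.412 per Mb, was below that of sequence between genes. In the same class 47.4% of NKT deep peaks were shared (36 to 59.1%), and in the other classes 61.2 to 66.3%. The interval overlapped others, such as the 51.1 to 70.6% of genes of 20 to 50 kb. The NKT median score was also lowest over 400 kb, 69.2 against 71.8 to 86.2 in the other classes. For PLZF-transgenic deep peaks the share was 43.2% over 400 kb and 43.1 to 47.0% in the other classes.

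**Figure D2:**
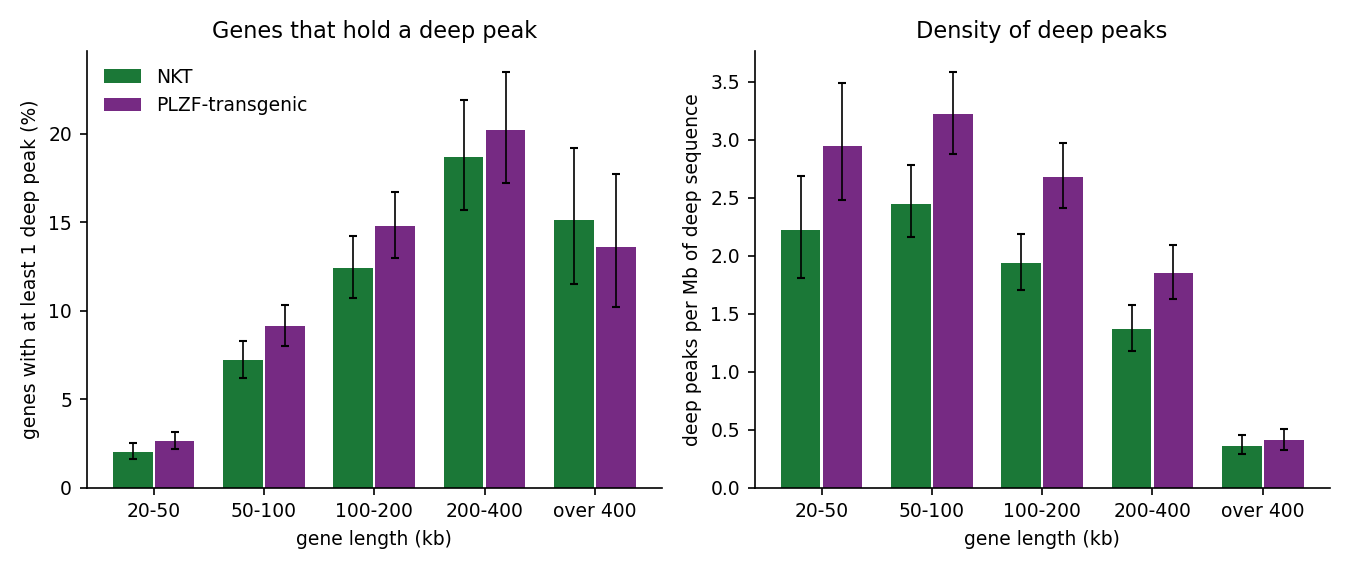
Left, percent of genes with deep sequence that hold at least 1 deep peak, by gene length, with exact 95% intervals. Right, deep peaks per Mb of deep sequence, with Poisson 95% intervals. NKT is green and PLZF-transgenic purple. The share is highest at 200 to 400 kb (18.7% and 20.2%), while the density is lowest in genes over 400 kb (0.365 and 0.412 per Mb).

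The longest genes show this directly. The 5 protein-coding genes with the most deep sequence were Dmd (2215 kb), Ptprd (2050 kb), Lsamp (2018 kb), Cntnap2 (1985 kb) and Lrp1b (1934 kb), and all had 0 deep peaks and 0 boundary peaks in both lists. Dmd encodes dystrophin of muscle, and Lsamp and Cntnap2 are adhesion genes of neurons. Among genes over 400 kb that did hold several, chosen after their values were seen, were Pde4d with 6 NKT and 4 PLZF-transgenic deep peaks, Atxn1 with 4 and 5, Maml3, a Notch coactivator gene, with 4 and 4, and Foxp1 with 2 and 8.

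Deep peaks were denser in genes that also had a peak of the same list within 10 kb of one of their own boundaries. In the NKT list, 992 genes with deep sequence had such a boundary peak and held 4.22 deep peaks per Mb (3.62 to 4.88), against 1.19 (1.1 to 1.28) in the 8280 genes without. In the PLZF-transgenic list 1244 genes with a boundary peak held 5.86 per Mb (5.24 to 6.54), against 1.46 (1.37 to 1.57) in 8028 genes without. The intervals were apart in each length class up to 400 kb in both lists. At 50 to 100 kb, for example, the NKT values were 6.59 with and 1.98 without a boundary peak, and the PLZF-transgenic values 8.57 and 2.39. Over 400 kb the NKT intervals overlapped (0.228 to 2.14 with and 0.278 to 0.444 without), and the PLZF-transgenic ones did not (0.852 to 3.05 and 0.293 to 0.464). Most genes with a deep peak had no boundary peak all the same, 496 of 619 in the NKT list and 536 of 732 in the PLZF-transgenic list. In genes with a boundary peak too, the density was highest at 50 to 100 kb and lower in each longer class, down to 0.835 per Mb in the NKT list and 1.71 in the PLZF-transgenic list over 400 kb. Expression of the genes was not measured, and its part in these densities was not tested.

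**Figure D3:**
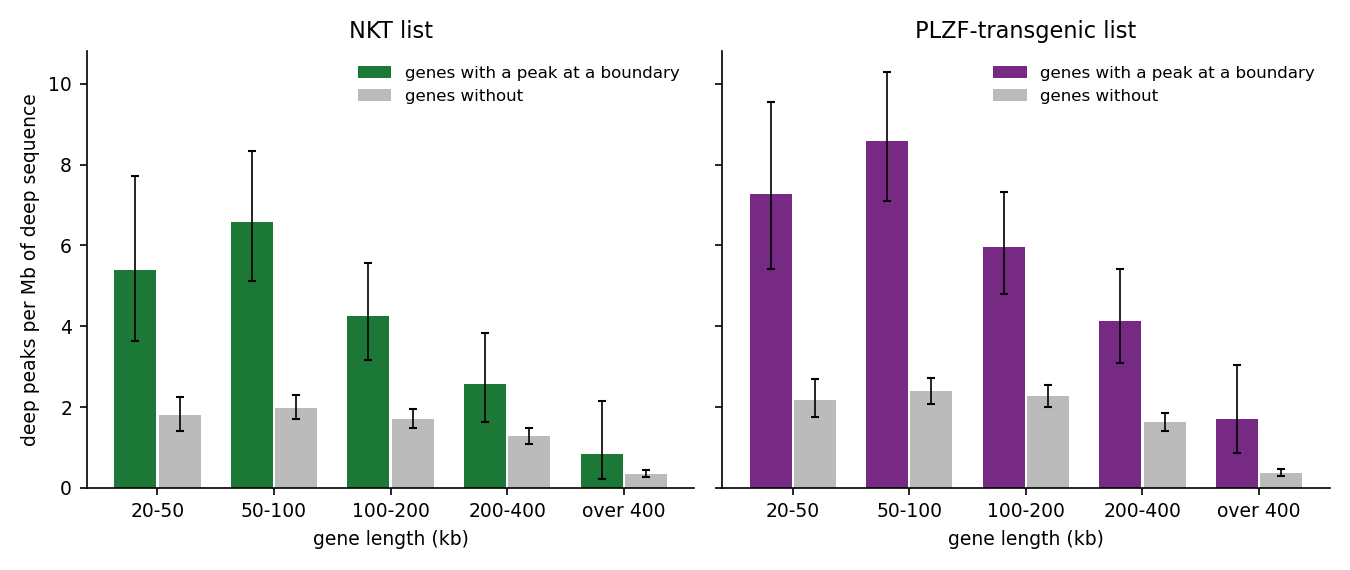
Deep peaks per Mb of deep sequence by gene length, for genes with a peak of the same list within 10 kb of one of their own boundaries (coloured) and genes without (grey), with Poisson 95% intervals. The coloured bars exceed the grey ones in each class, and for NKT genes over 400 kb the intervals overlap.

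Along the gene, PLZF-transgenic deep peaks lay slightly more often toward the 5′ end, and for NKT deep peaks no such lean was detectable. The strand was known for 717 of the 897 genes with a deep peak. NKT deep peaks lay in the 5′ part of the gene, before its middle, in 51.3% of cases (47.6 to 55.1%), where even placement over the deep sequence of the same genes gives 50.4%. For PLZF-transgenic deep peaks it was 55.4% (52.2 to 58.5%), where even placement gives 50.5%. Both intervals count each peak as independent, although 40.5% of neighbouring PLZF-transgenic pairs in a gene lay within 5 kb. They may therefore be too narrow. Whether the PLZF-transgenic lean holds with close peaks merged was not tested. The median distance from the 5′ boundary was 55.1 kb for NKT and 48.8 kb for PLZF-transgenic deep peaks.

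Within the 1591 stranded genes of 100 to 400 kb, the PLZF-transgenic density was 3.68 per Mb at 10 to 20 kb from the 5′ boundary (2.71 to 4.88) and 1.79 at 10 to 20 kb from the 3′ boundary (1.13 to 2.68). The NKT values were 1.84 (1.18 to 2.74) and 1.17 (0.653 to 1.92), with overlapping intervals. From 20 kb on, densities from the 5′ boundary in these genes stayed between 1.38 and 1.81 per Mb in the NKT list and between 1.64 and 2.69 in the PLZF-transgenic list. Over all 7356 stranded genes with deep sequence, the contrast at 10 to 20 kb was smaller. The PLZF-transgenic density there was 3.25 per Mb from the 5′ boundary and 2.40 from the 3′ boundary. Their intervals overlapped, as the 5′ interval started at 2.79 and the 3′ interval ended at 2.85. The NKT values were 2.13 and 1.84, also with overlapping intervals.

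Deep peaks of 1 gene often lay close together. Of 262 neighbouring pairs of NKT deep peaks in a gene, 113 lay within 5 kb of each other (43.1%), and of 435 PLZF-transgenic pairs, 176 did (40.5%). The median spacing was 7.59 kb in the NKT list and 8.35 kb in the PLZF-transgenic list. How close evenly placed peaks of the same genes would lie was not computed. A gene whose deep sequence is 1 short stretch can hold only close pairs. Some NKT pairs are parts of 1 PLZF-transgenic peak, so the number of NKT peaks in a gene can overstate the number of sites. In the NKT list 439 genes had 1 deep peak and 180 had 2 or more, and in the PLZF-transgenic list 478 and 254.

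Akap13, which encodes an A-kinase anchor protein, had the most deep peaks, 7 in the NKT list and 9 in the PLZF-transgenic list, on 279 kb of deep sequence. Their scores ran from 52.8 to 147 in the NKT list and from 51.8 to 276 in the PLZF-transgenic list, and 6 peaks of each list were shared. Of the shared sites, 5 lay between 117 and 155 kb from the 5′ boundary of a gene of 299 kb.

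Nck2, an SH2 and SH3 adaptor gene, had 4 NKT deep peaks with scores from 50.3 to 105 and 8 PLZF-transgenic ones from 51.7 to 342, and 2 of each were shared, at 19.7 and 54.8 kb. Cdyl2, a chromodomain gene, had 6 NKT deep peaks (50.3 to 116) and 5 PLZF-transgenic ones (72.6 to 534). Of the NKT peaks in Cdyl2, 3 fell under the single PLZF-transgenic peak of score 534.

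Ets1, which encodes an ETS factor of lymphocytes, had NKT scores of 61.5, 391, 223 and 250. Its PLZF-transgenic scores were 69.3, 248, 63.6, 862, 338 and 391, and the last 4 of these overlapped the 4 NKT peaks in the same order. The last 3 shared sites lay close together, within the final part of the gene by coordinate, at 104.8 to 111.5 kb from the boundary with the lower coordinate. Runx1, which encodes a factor needed for T cell development, had NKT scores of 166, 241, 86.6 and 103, and PLZF-transgenic scores from 50.5 to 356, and 3 of each were shared. The highest of both lists in Runx1 was the same site, 84.5 kb from the 5′ boundary.

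Foxp1, which encodes a forkhead factor that keeps naive T cells quiescent, had NKT scores of 116 and 219 and PLZF-transgenic scores from 51.8 to 336 at 8 peaks. Both NKT sites in Foxp1, at 134 and 128 kb, were among the 8. Pde4d had 5 of its 6 NKT and 3 of its 4 PLZF-transgenic deep peaks between 1169 and 1191 kb from the 5′ boundary, and the remaining peak of both lists lay at 585 kb. Ablim1 had 5 deep peaks in each list (51.6 to 238 in NKT, 123 to 435 in PLZF-transgenic), all at 183 to 202 kb from the 5′ boundary. Ldlrad3 had 3 NKT deep peaks (68.5 to 176) and 7 PLZF-transgenic ones (134 to 389), and Znrf1, a ubiquitin ligase gene, had 5 (52.0 to 390) and 4 (144 to 665).

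**Figure D4:**
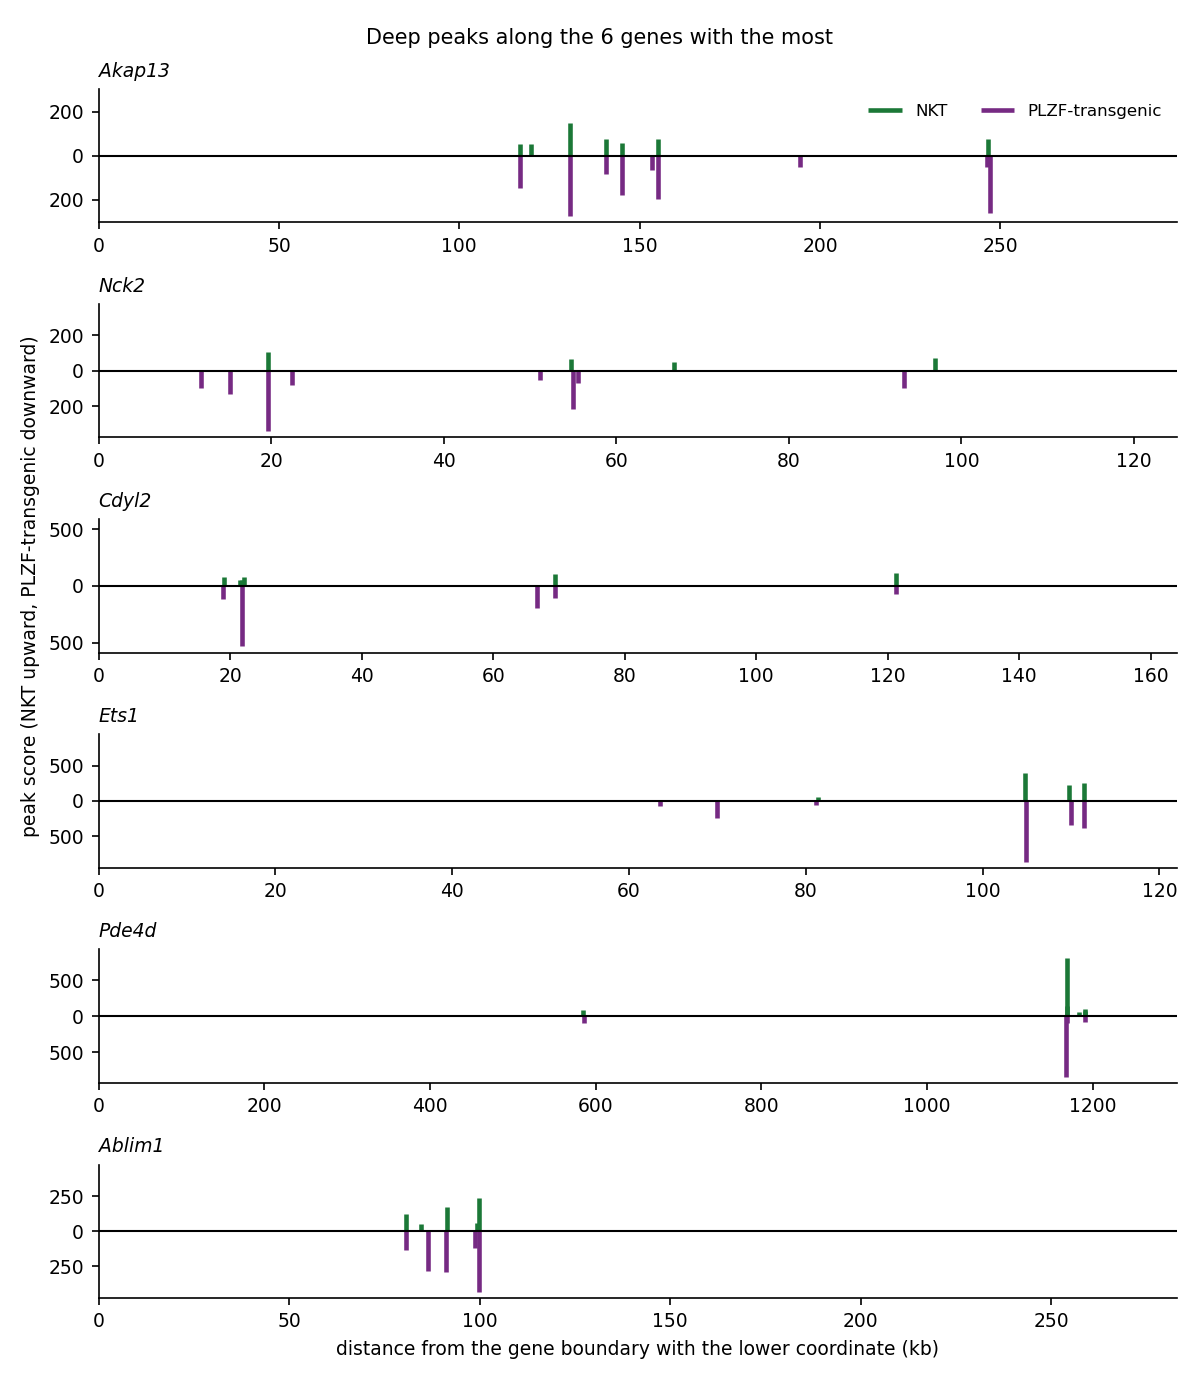
Deep peaks along the 6 genes with the most of them, drawn to scale from the gene boundary with the lower coordinate. Bars show the peak score, NKT upward in green and PLZF-transgenic downward in purple. Several high peaks stand at the same places in both lists. Examples are the 3 sites at 104.8 to 111.5 kb in Ets1 and the site at 1169 kb in Pde4d. Others, such as the PLZF-transgenic peak of 287 in Ablim1, have no overlapping NKT peak. The PLZF-transgenic peak of 261 in Akap13, at 247 kb, overlaps none either, but an NKT peak of 77.3 lies beside it at 246 kb.

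Per length, the densest genes with at least 4 deep peaks in both lists together had short deep sequence. Def6, which encodes an exchange factor of T cells, had 1 NKT and 3 PLZF-transgenic deep peaks on 1.15 kb. Those 3 lay side by side at 10.3, 10.6 and 11.1 kb from the 5′ boundary, so they may be parts of fewer sites. Sfi1, presumed repeat-rich, had 7 and 1 on 25.4 kb, NKT first. Xrra1 had 3 and 1 on 13.1 kb, Abcb9 3 and 1 on 14.1 kb and Lipa, a lysosomal lipase gene, 1 and 3 on 15.2 kb. On the X chromosome, 29.6 Mb of deep sequence held 3 deep peaks in each list, 0.101 per Mb (0.0209 to 0.297). The lowest autosomal values were 0.648 in the NKT list and 1.16 in the PLZF-transgenic list, both on chromosome 18. Peaks of all classes together were also few on X, 28 of 4239 nuclear peaks in the NKT list and 23 of 5191 in the PLZF-transgenic list. In each list 2 of the 3 deep X peaks were the same sites in Sh3kbp1, an adaptor gene. Their scores were 99.98 and 104 in the NKT list and 121 and 136 in the PLZF-transgenic list.

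Genes of T cell receptor signalling and T lineage transcription factors held deep peaks densely. The lists were chosen with earlier results of these data known, so the counts describe them and test nothing. Of 47 T cell receptor signalling genes, 35 had deep sequence, with a median length of 64.4 kb. A deep peak lay in 13 of the 35 in the NKT list (37.1%, 21.5 to 55.1%) and in 14 in the PLZF-transgenic list (40%, 23.9 to 57.9%), 11 of them in both, where all genes with deep sequence gave 6.68% and 7.89%. The density was 10.2 per Mb in the NKT list and 11.6 in the PLZF-transgenic list, against 1.39 and 1.84 over all genes and 2.45 and 3.22 in all genes of 50 to 100 kb. The median gene of the list had 0 deep peaks in each library, as over all genes.

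Ptprc, which encodes the phosphatase CD45, had NKT scores of 251 and 469, and PLZF-transgenic scores of 614 and 844 at the same sites with 2 further peaks of 106 each. The higher site lay 21.2 kb from the 5′ boundary of a gene of 113 kb. Fyb had NKT scores of 120, 257, 50.8 and 52.3 and PLZF-transgenic scores of 149, 355 and 277. Ubash3a, which encodes a suppressor of T cell receptor signalling, had 254 in the NKT list and 729 in the PLZF-transgenic list at 16.2 kb. Lcp2, which encodes the adaptor SLP-76, had highest scores of 220 in the NKT list and 299 in the PLZF-transgenic list, at different shared sites. Slamf1 (263) and Pik3r1 (193), which encodes a PI3 kinase subunit, had deep peaks in the PLZF-transgenic list alone.

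Of 50 T lineage transcription factor genes, 43 had deep sequence, with a median length of 101 kb. A deep peak lay in 21 in the NKT list (48.8%, 33.3 to 64.5%) and in 22 in the PLZF-transgenic list (51.2%, 35.5 to 66.7%), 19 of them in both. The median gene had 0 deep peaks in the NKT list and 1 in the PLZF-transgenic list, and the density was 9.23 and 11.2 per Mb. All genes of 100 to 200 kb gave 12.4% and 14.8%, at 1.94 and 2.68 per Mb, NKT first. Prdm1, which encodes BLIMP1, had 1 deep peak at 80.2 kb, with scores of 469 in the NKT list and 689 in the PLZF-transgenic list. Rora, at 735 kb one of the longest, had 1 at 381 kb (338 and 549), and Nfatc3 had 303 and 516 at 53.7 kb, the NKT value first in both. Nfatc2 had 2 deep peaks in the NKT list alone (61.9 and 112), and Satb1, which encodes a chromatin organiser, 1 in the PLZF-transgenic list alone (68.5). Zbtb16 itself had 3 NKT deep peaks (58.8, 124 and 82.1) and 2 PLZF-transgenic ones (52.7 and 90.3), which overlapped the last 2 of the NKT peaks. The transgene construct is not described in the labels, so any reads of it at this locus cannot be told apart from those of the gene itself.

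Of 43 GTPase regulator and cytoskeleton genes, 39 had deep sequence, with a median length of 166 kb. A deep peak lay in 15 in the NKT list (38.5%) and 18 in the PLZF-transgenic list (46.2%), 13 of them in both. All genes with deep sequence gave 6.68% and 7.89%, and all genes of 100 to 200 kb 12.4% and 14.8%, NKT first. The density was 3.93 and 5.61 per Mb, against 1.94 and 2.68 in all genes of 100 to 200 kb. Ldlrad4, in this list although known for TGF-beta signalling, had NKT scores of 108, 659 and 54.7 and 5 PLZF-transgenic peaks up to 996. Septin9 had 197 and 308 as its highest scores, Rapgef1 193 and 394, and Tiam1, a RAC activator gene, 181 and 304, NKT first. The 4 NKT sites in Tiam1 were all shared. Rapgef6 (224) and Evl (118) had a deep peak in the PLZF-transgenic list alone.

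Cytokine receptor and signalling genes are shorter, with a median of 39.6 kb for the 26 of 33 that had deep sequence. A deep peak lay in 3 in the NKT list (11.5%, 2.45 to 30.2%) and in 7 in the PLZF-transgenic list (26.9%, 11.6 to 47.8%), and all 3 were among the 7. The NKT interval included the 6.68% of all genes, and the PLZF-transgenic one lay above the 7.89%. All genes of 20 to 50 kb, the class of the median, gave 2.05% in the NKT list and 2.65% in the PLZF-transgenic list. Each interval lay above its value. However, all 3 genes with an NKT deep peak were longer than that class, Il2ra (50.4 kb), Il16 (103 kb) and Smad3 (111 kb). In the PLZF-transgenic list these 3, Jak1 (113 kb) and Il12rb2 (90.3 kb) were longer. Only Il18r1 (35.3 kb) and Smad7 (28.6 kb) were in the class. The density of the whole list was 8.43 per Mb for NKT (3.09 to 18.3) and 16.9 for PLZF-transgenic (8.71 to 29.4), from 6 and 12 peaks on 0.712 Mb. Il2ra, which encodes CD25, had NKT scores of 65.4, 62.5 and 67.1 and PLZF-transgenic scores of 156 and 82.2 that overlapped the first 2 of them. Smad3, a TGF-beta signal transducer, had 93.1 in the NKT list and 116 in the PLZF-transgenic list at 37.1 kb. Jak1 (320) and Il18r1 (96.7) had a deep peak in the PLZF-transgenic list alone.

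Of 54 chromatin regulator and co-repressor genes, 50 had deep sequence, with a median length of 82.0 kb. A deep peak lay in 9 in the NKT list (18.0%, 8.58 to 31.4%) and in 12 in the PLZF-transgenic list (24.0%, 13.1 to 38.2%). Both lists held 8 of these. All genes with deep sequence gave 6.68% and 7.89%, and all genes of 50 to 100 kb 7.20% and 9.12%, NKT first. The density was 2.54 per Mb in the NKT list (1.22 to 4.67), near the 2.45 of all genes of 50 to 100 kb. In the PLZF-transgenic list it was 5.59 (3.50 to 8.46), against 3.22. Smarca2, which encodes a SWI/SNF ATPase, had 287 in the NKT list and 98.5 in the PLZF-transgenic list at the same site, 41.3 kb into the gene. Hdac4 had 170 and 229, Nsd2 146 and 483, and Arid1b 161 and 450 at their highest shared sites, NKT first. Arid1b had 7 PLZF-transgenic deep peaks in all, 2 of them shared. Arid1a (205) and Sin3b (108) had a deep peak in the PLZF-transgenic list alone.

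Long genes that most tissues express, 50 genes with a median length of 253 kb, held a deep peak in 16 in the NKT list (32.0%, 19.5 to 46.7%) and in 19 in the PLZF-transgenic list (38%, 24.7 to 52.8%), 13 of them in both. Their density was 2.41 per Mb (1.62 to 3.44) and 3.53 per Mb (2.56 to 4.74), NKT first. That was above all genes of 200 to 400 kb, the class of the median (1.37 and 1.85), and below the T cell receptor signalling list. Akap13 alone, a member of the list, held 7 of its 30 NKT and 9 of its 44 PLZF-transgenic deep peaks. Members also lay outside that class, from Cdk8 (72.1 kb) to Immp2l (932 kb). Mbnl1, a splicing regulator gene, had highest scores of 367 in the NKT list and 230 in the PLZF-transgenic list at 14.3 kb, Cdk8 210 and 75.6, Ube2e2 191 and 266, and the mitotic checkpoint gene Mad1l1 167 and 258. Cdkal1 (142) and Fbxl17 (102) had a deep peak in the PLZF-transgenic list alone.

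The list of very long, mostly neuronal genes, 50 genes with a median length of 1142 kb, held a deep peak in 3 genes in each list (6.00%, 1.25 to 16.5%), 1 of them in both. That share was close to the 6.68% and 7.89% of all genes, NKT first, and its interval included the 15.1% and 13.6% of all genes over 400 kb. Its 59.4 Mb of deep sequence held 4 deep peaks in each list, 0.0674 per Mb (0.0184 to 0.172), against 0.365 and 0.412 per Mb in all genes over 400 kb, NKT first. The 1 in both was Nrxn3, a synaptic adhesion gene, with scores of 78.7 in the NKT list and 67.6 in the PLZF-transgenic list at the same site, 1228 kb from the 5′ boundary. In the PLZF-transgenic list alone were Fhit (104 and 84.9, the first on an internal promoter) and Magi2 (64.0), and in the NKT list alone Ctnna2 (60.1 at its highest) and Tenm4 (57.3).

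The lists of markers of other cells of the thymus held too few genes with deep sequence to be set apart from all genes, of which 6.68% had a deep peak in the NKT list and 7.89% in the PLZF-transgenic list. Of 20 B cell markers 10 had deep sequence and 0 had a deep peak in either list, and of 24 thymic stroma markers 12 had deep sequence and 0 had one. Counts of 0 of 10 and 0 of 12 allow shares of up to 30.8% and 26.5% (exact 95% interval). Of 27 myeloid and dendritic markers 9 had deep sequence and 2 had a deep peak in both lists (22.2%, 2.81 to 60.0%), at 3.04 per Mb in the NKT list (0.368 to 11) and 4.56 in the PLZF-transgenic list (0.940 to 13.3), and these intervals include the values over all genes. Flt3, also a receptor of early lymphoid progenitors, had 149 in the NKT list and 113 in the PLZF-transgenic list at a shared site, with a further PLZF-transgenic peak of 296. Itgam, which encodes CD11b, had 139 and 112, NKT first.

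**Figure D5:**
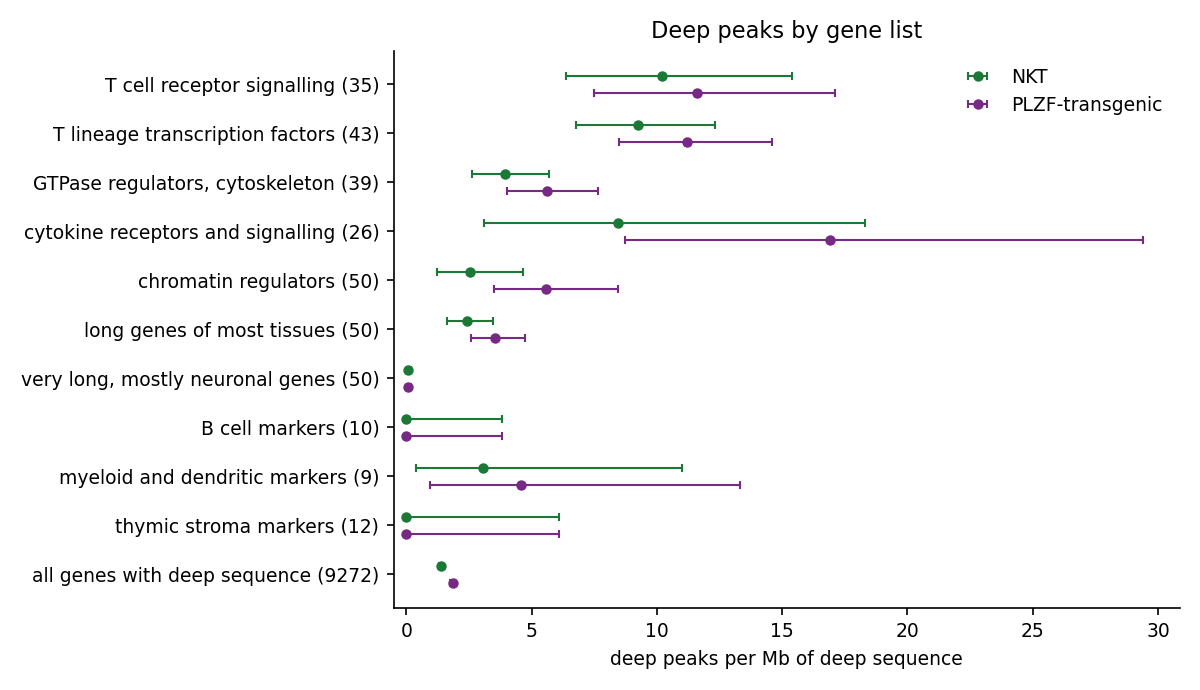
Deep peaks per Mb of deep sequence for each gene list, NKT (green) above PLZF-transgenic (purple), with Poisson 95% intervals. The number of genes with deep sequence stands in brackets, and the last row gives all 9272 genes. The T cell receptor signalling and T lineage factor lists lie at 9.23 to 11.6 per Mb, and the very long, mostly neuronal genes at 0.0674 per Mb. The cytokine receptor and signalling list lies at 8.43 per Mb for NKT (3.09 to 18.3) and 16.9 for PLZF-transgenic (8.71 to 29.4).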

How the data were processed

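Streptavidin ChIP libraries of mouse thymocytes were compared as peak lists, 1 per group. The 2 input libraries were not analysed here. By their columns, the deposited lists hold a position, a name that starts with MACS and a score per peak. The score is the authors' value for each peak, deposited with no statement of its scale, from 50.02 (NKT) and 50.03 (PLZF-transgenic) upward, and it was used only within its list. Per the submitters' processing notes, mm10 was used with Bowtie, Picard and HOMER. Not given in the sources used here are versions, the peak caller, its control and any pooling.

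Coordinates are 1-based. Gene spans came from RefSeq GRCm38.p6, and strands and promoters from its promoter table. Exons were not used. A shared peak overlapped the other list by at least 1 bp. A peak in several genes counted for each. Intervals are exact (Clopper-Pearson or Poisson, 95%), and no test between libraries was possible. Code was tested on simulated data (Python 3.11.15, pandas 2.3.3, scipy 1.17.1). The members and lists were chosen with earlier results of these data known. Named were the 10 genes with the most deep peaks, the 8 highest-scoring deep peaks of each list and the 5 highest unshared, 3 on each side of the limit, up to 4 shared and 2 single-library genes per list, the 5 genes with the most deep sequence and the 5 densest. Genes on internal promoters or the X chromosome, Zbtb16, Atxn1, Maml3, Ctnna2, Tenm4, Il12rb2 and Smad7 were added after their values were seen. Alternatives were other boundary limits, whole peaks, score filters and stricter overlap.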

Additional observations from a re-analysis of the deposited data

How the results depend on the processing

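No paired analysis was possible because each group had 1 library, and for the same reason no library could be left out. Leaving out presumed repeat-rich regions (peaks wider than 3 kb and Sfi1), asking for the whole peak to lie beyond the limit, and counting peaks within 5 kb as 1 site moved none of the values they apply to outside their 95% intervals (counts, 1.5 times).

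A 5 kb limit gave 28.4% of NKT and 30.5% of PLZF-transgenic peaks as deep, deep densities 2.22 and 2.61 times those between genes, and a PLZF-transgenic ratio of 3.35 for genes with over genes without a boundary peak (4.0 as reported). A 20 kb limit gave 525 and 688 deep peaks (12.4% and 13.3%), ratios to sequence between genes of 3.19 and 3.97, deep peaks in 7.23% and 8.47% of genes, and 4.99 for the PLZF-transgenic boundary ratio. With protein-coding boundaries only, 27.2% and 28.6% of peaks were deep, the ratios to sequence between genes were 2.14 and 2.46, and 7.73% and 9.03% of genes held a deep peak.

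The top 50% by score left 458 and 638 deep peaks, with median scores of 126 and 202, widths of 340 and 529 bp, and 72.7% and 51.9% shared. Deep peaks lay in 3.97% and 5.05% of genes, the NKT ratio to sequence between genes was 2.94, 24.6% of PLZF-transgenic peaks were deep, and deep peaks exceeded the others by 0.135 and 0.610 in median score. The PLZF-transgenic width difference turned round, to -12.5 bp. The top 1000 left 218 and 239, with median scores of 201 and 356, widths of 470 and 706 bp, 67.4% and 61.5% shared, and 2.07% and 2.18% of genes. The score difference turned round in both lists, to -6.12 and -5.85, and the PLZF-transgenic width difference was 6 bp. The NKT ratio to sequence between genes was 2.90, and 23.9% of PLZF-transgenic peaks were deep. Genes over 400 kb then had 0.0993 and 0.0861 times the density of genes of 50 to 100 kb, and the boundary ratios were 6.42 and 5.08. Fewer peaks, fewer genes with a deep peak and higher median scores follow from these filters by construction. The filters cut both lists before overlaps were counted, so a shared peak here needed a partner that also passed. The cause of the rest was not tested.

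Reciprocal overlap of 50% lowered sharing to 41.5% and 31.3%, and midpoints within 1 kb gave 50.1% in the PLZF-transgenic list. NKT stands first in each pair.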
